A study of Mus musculus with 18 samples.

Results

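The lacrimal gland and the meibomian gland of the same kind of androgen-deprived mouse were compared with each other across all probes of the array. The members were chosen by label alone: the 3 arrays of lacrimal glands and the 3 arrays of meibomian glands from mice that carried placebo pellets, 6 of the 18 arrays of the series. All animals, those of both groups included, were orchiectomized male BALB/c mice, and the pellets (placebo in both groups compared here) were in place for 21 days. Each array held RNA of a pool, labelled A, B or C, of 10 glands from 5 animals, although a count of 4 per sex is stated beside it. Whether a letter marks the same mice in both glands is not stated. The p-values set each difference against a spread between pools, not between mice, that is estimated over all 18 arrays. The median SD within a group on the log2 scale was 0.186 in lacrimal and 0.0918 in meibomian placebo pools. After a filter on missing and dim values, 7463 probes were tested, of which 6575 named 1 gene each, 6485 genes in all, and 888 had no gene name here.

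The lacrimal gland is a serous exocrine gland whose acinar cells build tear proteins in the endoplasmic reticulum, pack them in granules and release them with water and salts when nerves signal. The meibomian gland is a sebaceous gland of the eyelid margin: its acinar cells fill with wax and cholesteryl esters of very long fatty acids, then break up whole and pass through a duct lined by stratified squamous epithelium, and the oil spreads over the watery tears. Androgen acts on both glands, and the comparison asks how their expression differs when the testes are removed and no testosterone is returned.

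The summed markers of each gland followed its label. The lacrimal acinar markers fixed for this check (10 tested genes) summed to intensities of 2207 to 2308 on the lacrimal arrays and 44.6 to 138.5 on the meibomian arrays. The meibomian sebocyte markers (8 tested genes) summed to 13.1 to 14 on the lacrimal and 577 to 590 on the meibomian arrays. Other tissue of the eyelid was on the meibomian arrays too: markers of stratified keratinocytes (9 tested genes) summed to 300.3 to 346 there against 6.42 to 7.10 on the lacrimal arrays, those of skeletal muscle (8) to 254.6 to 309.4 against 3.93 to 5.08, those of conjunctival surface cells (3) to 74.1 to 106.8 against 1.99 to 2.16, those of fibroblasts (5) to 98.0 to 103.9 against 27.7 to 38.0, and those of melanocytes (2) to 9.66 to 12.5 against 0.871 to 1.22. Plasma and B cell markers (6) ran the other way, 63.7 to 74.3 on the lacrimal against 10.7 to 12.8 on the meibomian arrays. Such sums are carried by the brightest members, and a few members went against their sum in the test below. These were Lyz2 and Mucl1 of the 10 acinar markers, Lor of the 9 keratinocyte markers and Tnfrsf17 of the 6 plasma and B cell markers. A lower value in bulk tissue can come from fewer cells of a type or from less RNA per cell, and these cannot be told apart here.

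The scale of the arrays differed by gland. The medians lay close together, from 0.929 to 0.952, and so did the 90th percentiles, from 13.1 to 13.8. At the bright end the lacrimal arrays reached 977 to 1042 and the meibomian arrays 134.6 to 142.9, so that 152 tested probes averaged above 150 in lacrimal glands and 0 in meibomian glands. At the dim end the 10th percentile was 0.307 to 0.316 on the lacrimal and 0.0514 to 0.0559 on the meibomian arrays. A gene at the dim end of both glands therefore reads higher in the lacrimal gland, and so does a gene at the bright end of both. For this reason within-array percentiles, the share of the tested probes on an array that a probe outranks, were computed too. They are given below for all probes, for the endoplasmic reticulum and ribosomal lists and for some genes. The median difference of every list but the ribosomal and endothelium lists had the same sign by percentile as by intensity. Spearman correlations were taken over all probes with a value on both arrays, before the filter. Between pools of the same gland they were 0.927 to 0.933 in lacrimal and 0.991 to 0.992 in meibomian glands. Between glands they were 0.784 to 0.792.

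**Figure D1:**
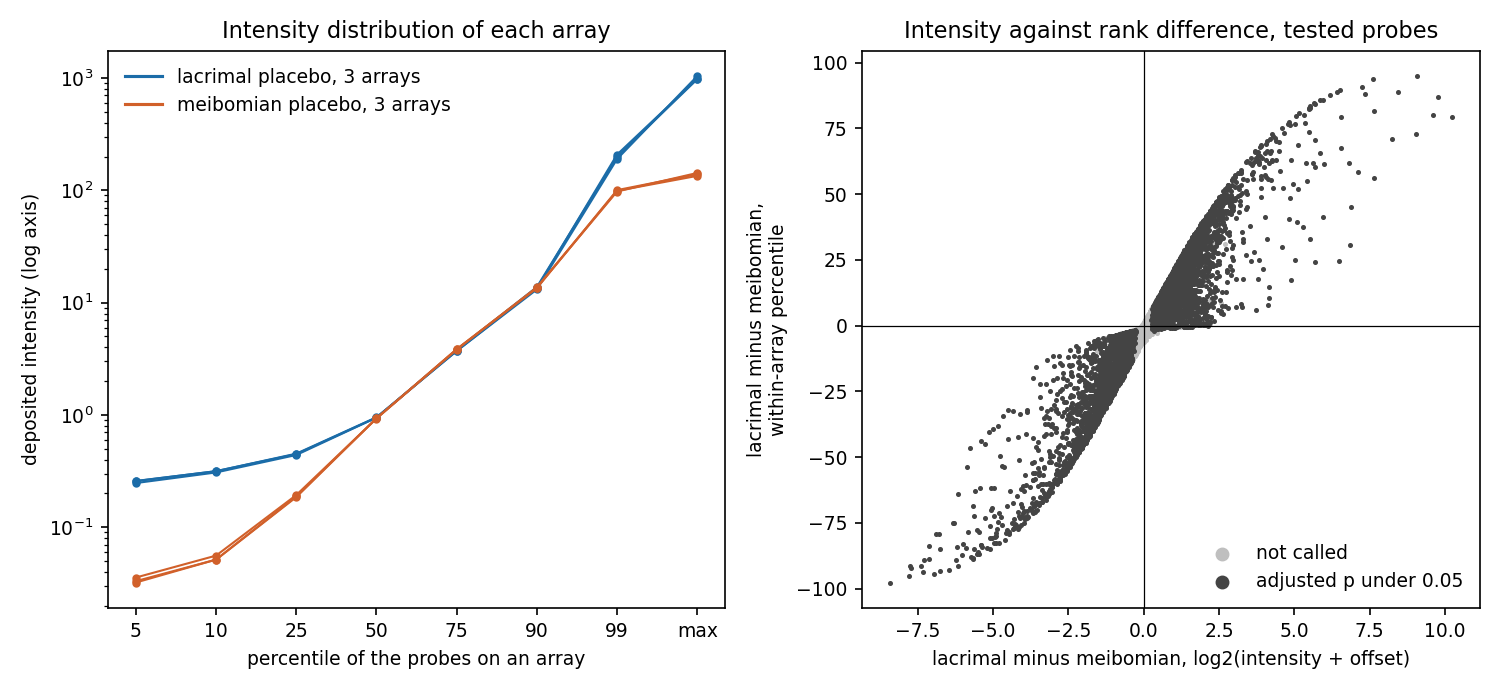
Left, deposited intensity on a log axis at 7 percentiles and at the maximum of each of the 6 arrays; the curves of the 2 glands meet from the 50th to the 90th percentile and part at both ends, with maxima of 977 to 1042 in lacrimal and 134.6 to 142.9 in meibomian glands. Right, for each tested probe the lacrimal minus meibomian difference in log2 intensity against the difference in mean within-array percentile; 5030 of the 5069 called probes lie in the quadrants where both have the same sign.

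Single pools stood apart for a few genes, chosen here after their values were seen. Lacrimal pool A read at least 4-fold above both other lacrimal pools on 7 tested probes, 6 of them named, and the submandibular placebo mean was above that pool on 7 of these 7. Amy1, salivary amylase, read 120, 1.97 and 4.47 in lacrimal pools A, B and C against 257 ± 23.9 (SD, n = 3) in submandibular glands, and Chia1, an acidic chitinase, read 84.5, 1.14 and 1.80 against 249 ± 40.2. Klk1b5, a kallikrein of the submandibular duct, read 14.7, 0.579 and 0.487 against 687 ± 49.7. The other named probes of this kind were Chil3, Egr3 and Mymk, and the called difference of Mymk, 2.13, was 0.70 without pool A. Meibomian pool B read at least 4-fold above both other meibomian pools on 4 probes, of which 3 are the lacrimal products Scgb1b2 (3.82, 98.3 and 3.40 in pools A, B and C), Sval2 (0.0369, 3.26 and 0.0346) and Pnliprp1 (0.285, 1.88 and 0.144). Meibomian pool A stood above the others on 4 interferon-induced genes, Tgtp1, Iigp1, Cxcl9 and Isg15, with Tgtp1 at 12.2, 1.5 and 1.62. Lacrimal pool C read at least 4-fold below both other lacrimal pools on 25 probes and above them on 0. Of these 25 probes 10 were called. They are not described singly, and any that belong to a list are in its counts. The placebo differences of Amy1, Chia1, Scgb1b2, Sval2 and Pnliprp1 are given beside their pools. Without lacrimal pool A and meibomian pool B together, an alternative added after the pools were seen, 4534 probes were called in place of 5069.

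The glands differed on most probes. With an adjusted p under 0.05 as the call (limma, Benjamini-Hochberg over the 7463 tested probes), 5069 probes or 67.9% were called, 2891 (38.7%) higher in lacrimal and 2178 (29.2%) higher in meibomian glands. Calls of at least 4-fold, a log2 difference of 2, numbered 526 (7.05%) higher in lacrimal and 478 (6.4%) higher in meibomian glands. The 3 and 3 within-array percentiles did not overlap for 3027 probes higher in lacrimal (40.6%) and 2748 higher in meibomian glands (36.8%). Of the 526 probes 4-fold higher in lacrimal glands, 524 had percentiles apart in the same direction, as had all 478 probes 4-fold higher in meibomian glands. The dim and bright ends of the scale carried an excess of lacrimal calls: with the tested probes ranked by brightness and cut in 10 equal bins, in the dimmest bin 473 were higher in lacrimal and 40 in meibomian glands, in the brightest bin 361 and 188, and in bin 5 230 and 268. Since so many probes were called, each list below is set against these shares and against the median difference of all tested probes, 0.12 on the log2 scale.

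**Figure D2:**
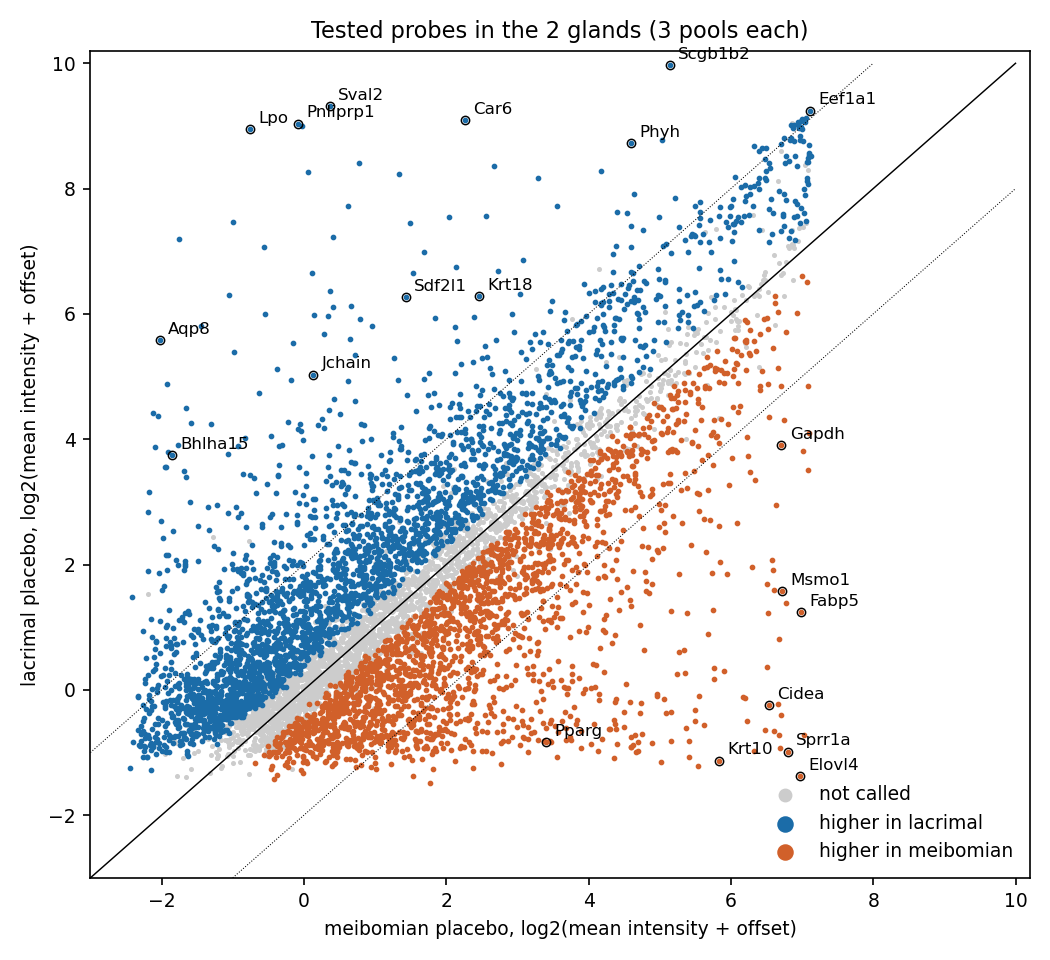
Mean intensity of each tested probe (3 pools per gland) as log2(intensity + offset), meibomian gland on the horizontal and lacrimal gland on the vertical axis, coloured by call; dotted lines mark 4-fold differences. Tear products such as Lpo and Car6 lie at the upper left and lipid and epidermal genes such as Elovl4 and Sprr1a at the lower right, and the meibomian values end near 143.

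Most tear proteins were higher in lacrimal glands. Of 23 tested probes for tear proteins and acinar products, 19 were higher in lacrimal glands, 17 of them at least 4-fold, and 3 in meibomian glands, with a median difference of 3.84. Sval2, a seminal vesicle antigen-like secretory protein, read 613, 651 and 647 in lacrimal pools A, B and C and 0.0369, 3.26 and 0.0346 in meibomian pools. Its difference was 10.22 ± 0.70 (log2, SE; adjusted p = 1.5e-09), the largest in the comparison, and it was 11.57 without meibomian pool B. Lpo, the peroxidase of tears and saliva, read 532, 482 and 464 against 0.285, 0.707 and 0.264, a difference of 9.77 ± 0.20 (adjusted p = 8.31e-16). Pnliprp1, a pancreatic lipase-related protein, read 567, 516 and 490 against 0.285, 1.88 and 0.144 (9.61 ± 0.95, adjusted p = 1.49e-07), and differed by 10.42 without meibomian pool B. Car6, the secreted carbonic anhydrase, read 536, 575 and 530 against 5.08, 3.87 and 4.88 (6.84 ± 0.17, adjusted p = 5.27e-15). The pools of the glands did not overlap in these genes, which the rule that named them required. Over all 7463 tested probes the pools were likewise apart for 3293 higher in lacrimal and 2566 higher in meibomian glands.

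The brightest probe of the lacrimal arrays was Scgb1b2, a secretoglobin, with 1042, 984 and 977 in pools A, B and C. In meibomian glands it read 3.82, 98.3 and 3.40, so pool B stood far above the other meibomian pools, and the difference was 6.48 ± 0.81 (adjusted p = 2.27e-06), or 8.05 for Scgb1b2 without pool B. Ltf, the iron-binding lactoferrin of tears, read 75.3, 79.0 and 83.9 against 7.24, 9.60 and 7.28 (3.29 ± 0.26, adjusted p = 1.08e-08), and was thus clearly measured in meibomian glands too. Hp, haptoglobin, which binds free hemoglobin, read 358, 296 and 364 against 1.31, 1.80 and 1.51 (7.63 ± 0.19). The 3 members higher in meibomian glands were Lyz2, Lyz1 and Mucl1. Lyz1 and Lyz2 encode near-identical lysozymes that probes may not tell apart. Lyz1 averaged 6.41 ± 0.941 (SD, n = 3) in lacrimal and 13.7 ± 1.38 in meibomian glands, and Lyz2 7.79 ± 1.35 and 20.1 ± 2.12. Mucl1 was dim in both, at 0.272 and 0.446, and lost its call without lacrimal pool C (-0.36), meibomian pool A (-0.31) or meibomian pool C (-0.44). Amy1 and Chia1 were called higher in lacrimal glands with differences of 4.39 and 4.54, beside the pool A values given above. Without lacrimal pool A the difference of Amy1 was 2.64 (adjusted p = 0.00292) and that of Chia1 2.63, no longer called (adjusted p = 0.225); Chia1 also lost its call without any 1 of the 3 meibomian pools (adjusted p from 0.0694 to 0.0869).

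**Figure D3:**
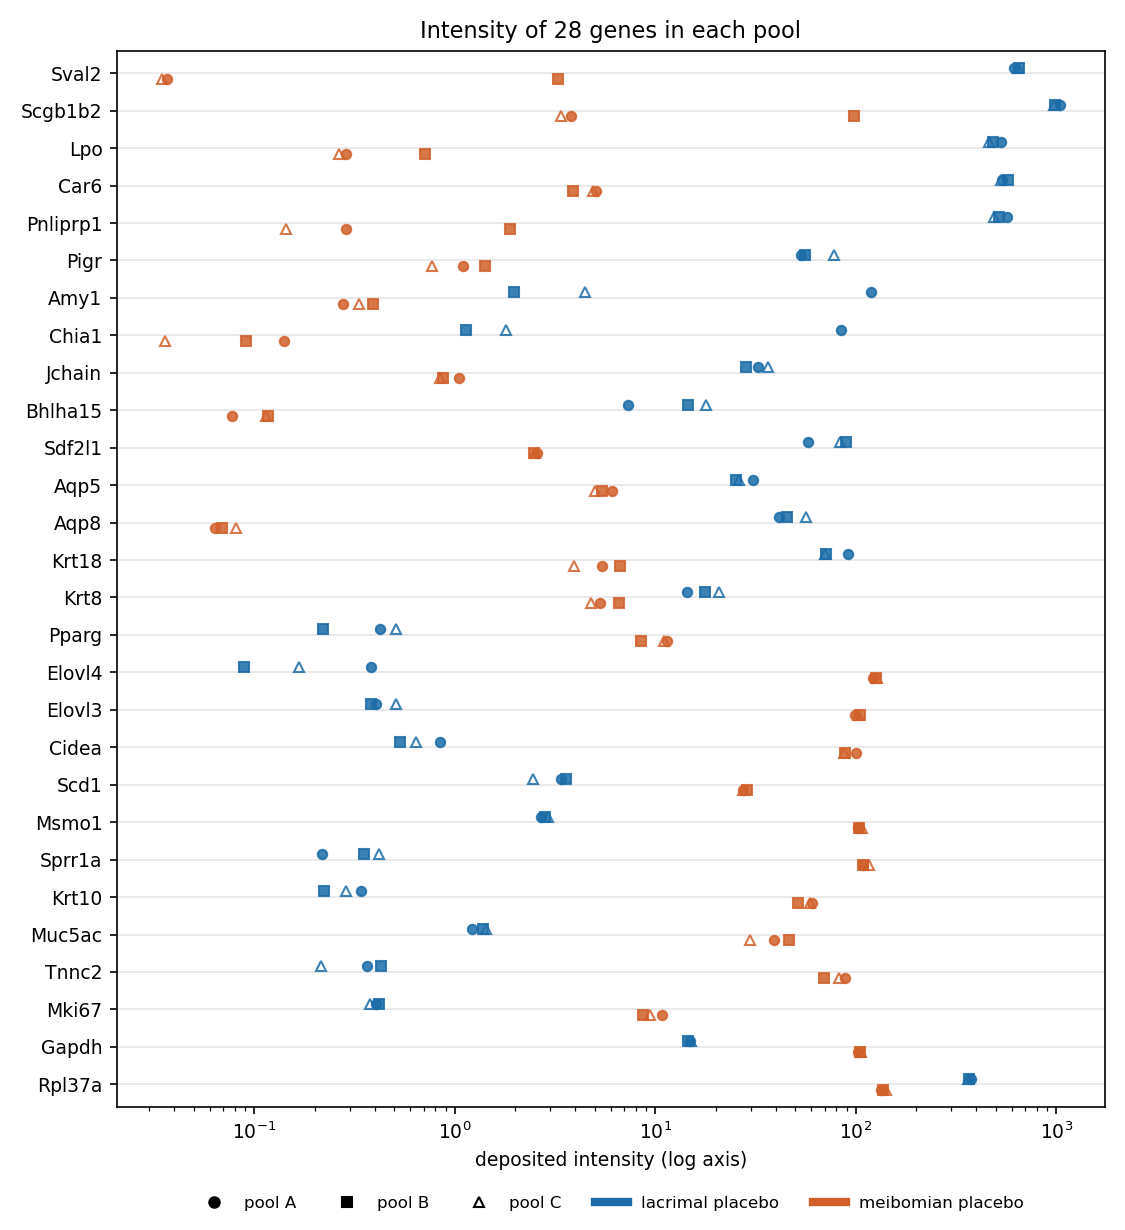
Deposited intensity, on a log axis, of 28 genes in each of the 3 lacrimal and 3 meibomian placebo pools, without error bars because every pool is drawn. Pools of a gland cluster for most genes; Amy1 and Chia1 in lacrimal pool A and Scgb1b2, Sval2 and Pnliprp1 in meibomian pool B lie apart from the other pools of their gland.

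Transcription factors of serous secretory cells went with the tear proteins. Of 19 tested, 15 were higher in lacrimal glands and 1 in meibomian glands, with a median of 1.41. Bhlha15, known as Mist1, which builds the secretory apparatus of serous acinar cells, read 7.29, 14.6 and 17.9 in lacrimal and 0.0776, 0.118 and 0.114 in meibomian pools (5.51 ± 0.33, adjusted p = 2.71e-10). Its mean percentile was 84.6 in lacrimal and 1.88 in meibomian glands. Etv1, an ETS factor, read 4.45, 3.50 and 3.64 against 0.189, 0.131 and 0.103 (3.68 ± 0.16), and Elf5, an ETS factor of secretory epithelium, 6.77, 6.23 and 6.81 against 0.867, 1.10 and 0.847 (2.61 ± 0.11). Foxa1, a forkhead factor of glandular epithelium, was higher by 2.35 ± 0.12. Pax6, the eye-field factor needed to form the lacrimal gland, was higher by a smaller 1.28 ± 0.16, at 14.7, 13.4 and 9.93 against 5.18, 5.44 and 4.59, and was well measured in the eyelid as well. Elf3, an ETS factor of surface epithelium, was the 1 member higher in meibomian glands (0.573 against 3.20).

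Genes that translocate, fold and export secretory proteins formed the list with the largest share of calls in favour of the lacrimal gland. Of 53 tested probes, 45 were higher in lacrimal glands and 1, Ero1a, in meibomian glands; 16 were at least 4-fold higher, and the median was 1.37. By rank, 45 probes had percentiles apart in favour of lacrimal and 3 in favour of meibomian glands. Sdf2l1, a chaperone partner induced when unfolded proteins load the endoplasmic reticulum, read 57.8, 89.3 and 83.6 against 2.57, 2.48 and 2.51 (4.81 ± 0.15, adjusted p = 8.4e-14). Tram1, part of the translocation channel, read 183, 218 and 190 against 19.6, 19.6 and 23.5 (3.23 ± 0.13). Spcs2, a signal peptidase subunit, was higher by 2.80 ± 0.13, and Dnajc3, a co-chaperone of BiP, by 2.98 ± 0.17. Hspa5, BiP itself, the main chaperone of the compartment, differed less: it read 56.4, 59.8 and 73.8 against 39.0, 36.0 and 40.7 (0.70 ± 0.17, adjusted p = 0.00141), at percentiles of 95.9 and 94.6.

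Many promoters of this list are known targets of the unfolded protein response through a shared DNA element, and the element is shown here because it marks members of a list that moved largely together. The element searched was CCAAT, 9 bases of any kind and CCACG, on either strand, in the 250 bases before each RefSeq start (GRCm38.p6). Of the 51 tested genes of the list, 39 had a promoter in the table and 7 of these genes (17.9%) held the element. Counted by promoter it was 7 of 41, against 37 of all 32851 promoters (0.113%). The element is in capitals below, each stretch is written 5′ to 3′ in the direction of its gene, and a copy on the other strand reads as its reverse complement.
Hspa5, chr2:34771890-34772089, plus strand: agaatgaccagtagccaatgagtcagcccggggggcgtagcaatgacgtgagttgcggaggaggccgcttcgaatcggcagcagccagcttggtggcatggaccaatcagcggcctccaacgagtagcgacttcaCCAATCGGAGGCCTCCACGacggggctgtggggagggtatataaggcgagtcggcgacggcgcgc
Hsp90b1, chr10:86705513-86705676, minus strand: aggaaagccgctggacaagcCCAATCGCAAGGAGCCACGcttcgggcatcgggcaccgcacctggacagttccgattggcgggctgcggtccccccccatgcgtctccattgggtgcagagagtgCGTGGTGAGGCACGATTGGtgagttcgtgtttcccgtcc
Dnajc3, chr14:118937807-118937865, plus strand: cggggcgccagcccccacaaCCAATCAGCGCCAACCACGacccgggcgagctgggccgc
Calr, chr8:84847055-84847113, minus strand: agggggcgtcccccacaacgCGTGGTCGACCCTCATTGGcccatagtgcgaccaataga
Canx, chr11:50325780-50325838, minus strand: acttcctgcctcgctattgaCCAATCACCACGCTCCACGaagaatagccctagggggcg
Pdia6, chr12:17266471-17266529, plus strand: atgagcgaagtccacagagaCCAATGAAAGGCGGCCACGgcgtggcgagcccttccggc
Ero1b, chr13:12565662-12565720, plus strand: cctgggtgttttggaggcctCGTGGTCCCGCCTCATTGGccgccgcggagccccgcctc
The genes with the element did not differ alike. Ero1b, an oxidase that renews disulfide transfer, averaged 1.84 in lacrimal and 0.223 in meibomian glands (2.33 on the log2 scale), Calr, the lectin chaperone calreticulin, 19.0 and 7.27 (1.37), and the brighter probe of Canx, calnexin, 15.9 and 4.93 (1.65), all called. Hsp90b1, the HSP90 of the compartment, averaged 60.5 and 54.8 and was not called (adjusted p = 0.385), nor was Pdia6, a disulfide isomerase, at 19.5 and 11.3 (adjusted p = 0.0808). An element in these letters says nothing of its use in either gland.

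Transport and exocytosis genes differed less as a list: of 51 tested probes 27 were higher in lacrimal and 7 in meibomian glands, with a median of 0.45. Rab4a, a small GTPase of recycling endosomes, read 5.48, 5.99 and 6.31 against 0.152, 0.225 and 0.166 (4.11 ± 0.16). Sec24d, a coat subunit of vesicles leaving the endoplasmic reticulum, was higher by 2.60 ± 0.15 and Lman1, a cargo receptor on the same route, by 2.58 ± 0.19. Rab3a, a GTPase of regulated granule release, was higher by 2.53 ± 0.47. Stx4a, a plasma membrane fusion protein, was lower in lacrimal glands at 1.29, 0.925 and 1.10 against 5.01, 5.11 and 4.87 (-2.02 ± 0.15).

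Water and ion transport probes were called in both directions, 11 of 33 higher in lacrimal and 13 in meibomian glands, 6 at least 4-fold in each. These shares were 33.3% and 39.4%, beside 38.7% and 29.2% of all tested probes. No direction is read from the list, and its members are described singly. Of the aquaporin water channels, Aqp5, the apical channel of serous acini, read 30.8, 25.4 and 26.3 against 6.10, 5.44 and 5 (2.28 ± 0.15, adjusted p = 1.34e-09). Aqp8 read 41.6, 45.4 and 56.4 against 0.0639, 0.0687 and 0.0811 (7.60 ± 0.18), with a meibomian percentile of 1.09. Aqp3, the channel of epidermis and mucosa that also carries glycerol, went the other way with 0.296, 0.310 and 0.302 against 42.0, 46.3 and 38.4 (-6.47 ± 0.23). Each gland thus had an aquaporin at the bright end of its arrays that was at the bottom of the other. The brighter of 2 probes for Kcnma1, a calcium-activated potassium channel of secreting acini, read 17.8, 15.6 and 14.8 against 0.409, 0.397 and 0.359 (4.85 ± 0.13). Car2, the cytosolic carbonic anhydrase, and Atp1b1, a sodium pump subunit, were lower in lacrimal glands by -3.62 ± 0.18 and -3.14 ± 0.24.

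Receptors and relays of secretory signals were mostly higher in lacrimal glands, 17 of 23 tested probes against 2 in meibomian glands, with a median of 1.37. The muscarinic receptor Chrm3 was on the array and was not tested because it did not pass the filter. Htr1b, a serotonin receptor, read 214, 200 and 215 against 1.49, 1.37 and 1.22 (7.10 ± 0.15). P2rx4, an ATP-gated channel, read 21.9, 19.6 and 26.4 against 4.32, 4.45 and 3.20 (2.46 ± 0.17), Npr1, a natriuretic peptide receptor, was higher by 2.73 ± 0.16, and Mc5r, the melanocortin receptor known from exocrine and sebaceous glands, by 2.40 ± 0.29 (3.40 against 0.488). The 2 probes of Gnas, the stimulatory G protein, were both higher in lacrimal glands, by 2.77 ± 0.12 and by 0.51 ± 0.19. The second Gnas difference lost its call without lacrimal pool B (0.49), meibomian pool A (0.45) or meibomian pool B (0.51).

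Genes around IgA, which form no list of their own here, are described singly. Pigr, the receptor that carries IgA across the acinar cell, read 53.3, 55.7 and 77.6 against 1.10, 1.41 and 0.769 (5.63 ± 0.30, adjusted p = 5.85e-11). Jchain, which joins IgA into dimers in plasma cells, read 32.5, 28.2 and 36.7 against 1.05, 0.874 and 0.842 (4.89 ± 0.19, adjusted p = 1.34e-12). Cd79a, part of the B cell receptor, was higher by 2.94 ± 0.17, and Ccl28, the chemokine that draws IgA plasma cells to mucosal glands, read 11.9, 15 and 16.7 against 0.0817, 0.0309 and 0.0683 (5.97 ± 0.15). The plasma and B cell list was mixed, with 7 of 12 tested probes higher in lacrimal (58.3%) and 3 in meibomian glands (25%). Among those higher in meibomian glands, Prdm1, a factor of plasma cells that sebaceous and epidermal cells also use, averaged 0.576 against 6.19 (-3.08 ± 0.18), and Tnfrsf17, a plasma cell receptor, 1.45 against 5.52 (-1.79 ± 0.18). Of 20 probes for T, natural killer and mast cells 9 (45%) were higher in lacrimal and 3 (15%) in meibomian glands, with Cd4 the largest difference (2.41 ± 0.22). Macrophage and MHC class II genes were higher in lacrimal glands in 7 of 27 probes (25.9%) and in meibomian glands in 8 (29.6%). Over all tested probes the shares were 38.7% and 29.2%.

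Several of the largest lacrimal differences belonged to no list. Csn1s2a, a casein of milk, read 136, 128 and 138 against 0.549, 0.547 and 0.417 (7.63 ± 0.15), and Aass, which starts the breakdown of lysine, read 78.1, 72.1 and 86.2 against 0.299, 0.317 and 0.316 (7.35 ± 0.13). The forkhead gene Foxb1 (7.26 ± 0.17), the homeobox gene Hoxc4 (6.54 ± 0.33), the repressor gene Bcl6b (8.23 ± 0.20), the cytidine deaminase gene Apobec3 (6.82 ± 0.18) and the phosphatase gene Dusp19 (6.54 ± 0.18) were among the 15 largest of named probes, as was A730035I17Rik at 9.04 ± 0.18. By percentile the widest further gaps in favour of the lacrimal gland were those of Arhgap24 (90.2 against 0.749), Tex15 (90.8 against 2.94), Ccl28 (86.7 against 0.915), Gpr27 (89.5 against 3.46) and Elapor1 (86.9 against 2.25). Probe names are those of the platform annotation, which can be old, and no second probe was used to check these single-probe genes.

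Lipid synthesis was the counterpart in the meibomian gland. Of 27 tested probes for sebocytes and lipid droplets, 24 were higher in meibomian glands, 18 at least 4-fold, and 2 (Plin3 and Mogat1) in lacrimal glands, with a median of -3.06. Elovl3, an elongase of very long fatty acids that is abundant in sebaceous glands, read 0.404, 0.384 and 0.508 in lacrimal and 99, 105 and 103 in meibomian pools (-7.40 ± 0.14, adjusted p = 8.02e-16). Cidea, which fuses lipid droplets, read 0.847, 0.532 and 0.639 against 101, 88.7 and 87.1 (-6.78 ± 0.32). Scd3, a desaturase of sebocytes, read 0.228, 0.612 and 0.349 against 34.7, 36.9 and 35.5 (-6.03 ± 0.22), and its relative Scd1 read 3.38, 3.60 and 2.47 against 27.4, 28.5 and 27.2 (-3.09 ± 0.23). Pparg, the nuclear receptor that drives sebocyte and fat cell differentiation, read 0.424, 0.219 and 0.512 against 11.5, 8.52 and 11.1 (-4.26 ± 0.36, adjusted p = 1.93e-08). Fabp5, a fatty acid carrier of epidermis and sebocytes, was within 10% of the meibomian maximum at 125, 126 and 129, and its difference was -5.76 ± 0.14. The adipocyte list did not share this direction (2 of 10 higher in each gland).

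The enzymes that make long chains followed. Elovl4, the elongase of the longest fatty acids, had the largest difference in favour of the meibomian gland: it read 0.382, 0.0892 and 0.166 against 122, 125 and 128 (-8.41 ± 0.22, adjusted p = 1.02e-14), at percentiles of 1.84 and 99.5. These meibomian readings, like those of Fabp5 and Lgals7, lie within 10% of an array maximum, so the size and rank of the difference are those of the deposited values at that ceiling. Elovl1, another elongase, read 2.73, 3.88 and 2.54 against 90.6, 87.8 and 93.0 (-4.84 ± 0.16), and Hsd17b12, the reductase of the elongation cycle, was lower in lacrimal glands by -3.88 ± 0.31. Acsl5, which activates fatty acids with coenzyme A, differed by -3.87 ± 0.13. The 2 probes of Fasn, fatty acid synthase, differed by -2.66 ± 0.46 and -1.62 ± 0.28 (3.22 against 21.0 and 0.438 against 1.71). The list of 39 probes for fatty acid and triglyceride synthesis was more divided than the sebocyte list, with 25 higher in meibomian and 12 in lacrimal glands. The largest of those 12 was Slc27a2, a very long chain acyl-CoA synthetase, at 22.4, 19.2 and 19.7 against 0.0683, 0.0633 and 0.0679 (6.42 ± 0.25).

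Sterol synthesis was higher in meibomian glands in 10 of 12 tested probes and in lacrimal glands in 0, with a median of -1.94; the other 2 were not called. Msmo1, a methyl sterol oxidase, read 2.69, 2.82 and 2.90 against 103, 104 and 107 (-5.14 ± 0.13, adjusted p = 7.37e-15). Cyp51, the lanosterol demethylase, read 1.43, 1.68 and 1.93 against 50.1, 48.0 and 54.4 (-4.79 ± 0.18), and Tm7sf2 and Nsdhl, which act later in the pathway, differed by -3.42 ± 0.16 and -3.27 ± 0.19. Among ceramide and sphingolipid enzymes 9 of 18 were higher in meibomian and 4 in lacrimal glands. Cers4, a ceramide synthase, averaged 0.777 against 12.8 (-3.78 ± 0.16). Sptssb, a subunit that sets the chain length of serine palmitoyltransferase, read 0.201, 0.183 and 0.392 against 42.9, 47.6 and 48.2 (-6.77 ± 0.20).

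Fatty acid oxidation and peroxisome genes had members at opposite ends, 22 of 40 higher in meibomian and 11 in lacrimal glands. Hacl1, which shortens phytanic and other 2-hydroxy fatty acids in the peroxisome, read 7.91, 7.09 and 7.70 against 99.8, 93.5 and 105 (-3.69 ± 0.62, adjusted p = 6.11e-05). Phyh, the enzyme just before it in phytanic acid breakdown, went the other way with 427, 426 and 420 against 23.7, 26.2 and 22.0 (4.14 ± 0.13, adjusted p = 1.14e-13). Acox2, an oxidase of branched chains, differed by -4.32 ± 0.20 and Pxmp4, a peroxisomal membrane protein, by -2.92 ± 0.14 on its first probe. Acadsb, a mitochondrial dehydrogenase of short branched chains, was higher in lacrimal glands by 2.94 ± 0.13.

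The regulators of sebaceous and epidermal cells were higher in meibomian glands in 17 of 29 tested probes and in lacrimal glands in 8, with a median of -1.02. Besides Pparg, Trp63, the p63 factor of stratified epithelium, read 1.13, 0.851 and 0.916 against 15.4, 13.6 and 14.4 (-3.69 ± 0.22). Osr2, a zinc finger factor active in eyelid development, differed by -3.24 ± 0.18 and Pitx1, a homeobox factor, by -2.93 ± 0.18 (0.210 against 2.71).

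Of 9 tested keratins of stratified epithelium 8 were higher in meibomian and 0 in lacrimal glands, with a median of -3.35. Krt10, the keratin of suprabasal epidermis, read 0.339, 0.222 and 0.288 against 60.7, 51.4 and 59.2 (-6.97 ± 0.25), Krt1, its partner, 0.537, 0.538 and 0.372 against 49.1, 24.5 and 49.7 (-5.91 ± 0.31), and Krt17, of ducts and appendages, 0.266, 0.457 and 0.377 against 26.3, 22.4 and 25.1 (-5.53 ± 0.18). No probe named Krt5 or Krt14. The simple keratins split: Krt18 read 91.5, 71.1 and 70.0 against 5.41, 6.68 and 3.95 (3.84 ± 0.23) and its partner Krt8 14.3, 17.7 and 20.8 against 5.33, 6.59 and 4.76 (1.63 ± 0.22, adjusted p = 5.54e-06). Krt19, of ducts and transitional epithelium, and Krt7 were higher in meibomian glands, Krt19 at 0.446, 0.701 and 0.683 against 36.2, 38.7 and 32.2 (-5.53 ± 0.22) and Krt7 by a log2 difference of -3.12 ± 0.19.

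Genes of the cornified envelope and of desmosomes had the lowest median of all lists, -3.87; of 37 tested probes 32 were higher in meibomian glands, 26 at least 4-fold, and 1, Lor, was higher in lacrimal glands. Sprr1a, a small proline-rich envelope protein, read 0.219, 0.354 and 0.419 against 109, 109 and 117 (-7.81 ± 0.18, adjusted p = 4.65e-15), and Sprr1b 1.15, 0.830 and 1.34 against 88.9, 89.6 and 93.0 (-6.16 ± 0.41). Ly6d, a surface protein of keratinocytes, differed by -7.31 ± 0.23, and Dmkn, a secreted protein of the upper epidermis, by -7.11 ± 0.18. Outside the list, Lgals7, the galectin of stratified epithelium, read 0.464, 0.555 and 0.285 against 130, 126 and 136 (-7.77 ± 0.19), and Gsdma, a gasdermin of skin, differed by -7.14 ± 0.18. Such genes ranked near the bottom of the lacrimal arrays and near the top of the meibomian arrays, Sprr1a at percentiles of 3.75 and 99.1.

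The proximal promoters of this list and of the tear proteins were searched for the core letters of a TATA box, TATAAA, at its usual place, and the matches are shown because some members of both lists hold them. Sprr1a of the cornified list is among the matches, and Ly6d and Dmkn of that list are not. Sval2, Lpo, Pnliprp1 and Car6 of the tear list are not among them either. A member without a promoter in the table was not searched, so a gene that is not among the matches may have had no sequence to search. TATAAA was sought on the gene's strand within 50 to 16 bases before the start. It was found in 7 of the 24 tested genes of the cornified list with a promoter in the table (29.2%). In the tear protein list it was found in 4 of 18 such genes (22.2%). Counted by promoter it was 7 of 31 in the cornified list, 4 of 20 in the tear protein list and 761 of all 32851 (2.32%). The 60 bases before the start are given, with TATAAA in capitals, first for 5 Sprr genes, which neighbour each other on chromosome 3, and then for the 4 tear protein genes.
Sprr1a, chr3:92485882-92485941, minus strand: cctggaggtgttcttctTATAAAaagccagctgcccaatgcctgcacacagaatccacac
Sprr1b, chr3:92438780-92438839, minus strand: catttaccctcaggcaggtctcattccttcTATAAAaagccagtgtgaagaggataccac
Sprr3, chr3:92458721-92458780, minus strand: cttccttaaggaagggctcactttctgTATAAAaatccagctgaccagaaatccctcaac
Sprr2f, chr3:92365127-92365186, plus strand: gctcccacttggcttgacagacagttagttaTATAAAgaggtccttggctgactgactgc
Sprr2d, chr3:92339080-92339139, plus strand: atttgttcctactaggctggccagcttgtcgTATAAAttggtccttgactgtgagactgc
Scgb1b2, chr7:31291817-31291876, minus strand: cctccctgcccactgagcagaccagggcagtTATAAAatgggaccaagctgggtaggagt
Lcn3, chr2:25765473-25765532, plus strand: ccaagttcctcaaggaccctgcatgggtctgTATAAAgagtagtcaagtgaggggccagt
Wfdc18, chr11:83708944-83709003, plus strand: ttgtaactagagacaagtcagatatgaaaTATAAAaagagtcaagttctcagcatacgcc
Chia1, chr3:106113322-106113381, plus strand: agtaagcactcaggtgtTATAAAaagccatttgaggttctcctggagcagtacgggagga
The other 2 genes of the cornified list with these letters were Lor, a little higher in lacrimal glands (1.44 against 0.894, not called without lacrimal pool B or C or meibomian pool C, at 0.53, 0.50 and 0.54), and Sprr2b, which was not called (15.3 against 16.1, adjusted p = 0.757). Of the Sprr genes shown, Sprr3, Sprr2f and Sprr2d averaged 16.3, 14 and 2.44 in meibomian glands and 0.375, 0.513 and 0.409 in lacrimal glands. Sprr genes are similar in sequence, so a probe may read more than its own gene. Of the tear protein genes, Wfdc18, a whey acidic protein family member, averaged 241 in lacrimal and 24.7 in meibomian glands, and Lcn3, a lipocalin, 8.48 and 0.814.

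Genes named for other eyelid tissue were also higher in meibomian glands. Of 39 skeletal muscle probes 31 were higher in meibomian and 3 in lacrimal glands, with a median of -2.09; Tnnc2, troponin C of fast muscle, read 0.364, 0.428 and 0.215 against 88.0, 69.4 and 82.8 (-7.32 ± 0.46), and Atp2a1, the calcium pump of fast muscle, differed by -6.30 ± 0.37. Pool B was the lowest of the meibomian pools for Tnnc2, Atp2a1, Pvalb, Acta1 and Tnnt3. Hair shaft and melanocyte genes were higher in meibomian glands in 9 of 12 probes, with Krtap6-1, a hair keratin-associated protein, at 47.3, 39.0 and 53.5 against 0.799, 0.708 and 0.766, and Dct, a melanin synthesis enzyme, at 6.8 against 0.461. Of 9 conjunctival and mucous surface probes 6 were higher in meibomian glands; Muc5ac, the goblet cell mucin, read 1.22, 1.39 and 1.43 against 39.1, 46.4 and 29.8 (-4.64 ± 0.21), and Tff1, a trefoil peptide of goblet cells, 0.430, 0.341 and 0.308 against 22.3, 32.5 and 17.5. For both, pool B was the highest and pool C the lowest of the meibomian pools. Upk2, a uroplakin, went the other way (14.7 against 0.607). Matrix and fibroblast genes were higher in meibomian glands in 39 of 53 probes, with a median of -1.03, led by Tnc, the matrix protein tenascin C (0.483 against 10.4); Vcan, the proteoglycan versican, was higher in lacrimal glands (6.8 against 0.557). The part of these tissues in the lipid and keratinocyte results was not tested.

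Energy metabolism and growth also differed by gland. Glycolysis genes were higher in meibomian glands in 16 of 23 probes, with a median of -1.75. Gapdh read 14.8, 14.6 and 15 against 102, 104 and 106 (-2.80 ± 0.12, adjusted p = 6.9e-12), at percentiles of 87.2 and 98.8, and Ldhb, a lactate dehydrogenase subunit, differed by -4.17 ± 0.16. Eno3 (-5.03 ± 0.42) and Pgam2 (-4.02 ± 0.25) are the muscle forms of their enzymes and moved with the muscle list. Oxidative phosphorylation genes were higher in meibomian glands in 28 of 49 probes with small differences, a median of -0.40. Of 53 cell cycle probes 37 were higher in meibomian and 7 in lacrimal glands, with a median of -0.98. Mki67, the proliferation antigen, read 0.406, 0.418 and 0.377 against 10.8, 8.69 and 9.36 (-4.09 ± 0.20, adjusted p = 2.19e-11), Birc5, survivin, differed by -3.65 ± 0.19 and Cdk1, the kinase of mitosis, by -3.37 ± 0.20. On lacrimal arrays their percentiles were 5.87, 11.1 and 11.3, among the dim probes. Orc1, an origin recognition subunit, was among the 7 that went the other way (4.59 against 0.260).

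Steroid, retinoid and defence genes were divided. The steroid list had 13 of 30 probes higher in lacrimal (43.3%) and 10 in meibomian glands (33.3%). Over all tested probes the shares were 38.7% and 29.2%, so no direction is read from this list. Hsd3b6, a dehydrogenase of steroid synthesis, read 0.475, 0.127 and 0.295 against 19.2, 22.6 and 19.2 (-5.50 ± 0.25). Hsd17b2, which inactivates testosterone and estradiol, differed by -3.96 ± 0.36. Akr1c18, a hydroxysteroid dehydrogenase that removes progesterone, was higher in lacrimal glands at 50.1, 49.9 and 56.7 against 7.72, 7.28 and 7.61 (2.76 ± 0.17). No probe named Srd5a1, a 5-alpha-reductase. Retinoid genes were higher in meibomian glands in 8 of 14 probes and in lacrimal glands in 2, with Aldh1a1, a retinoic acid synthase, at -2.49 ± 0.23. Of 46 antioxidant probes 18 (39.1%) were higher in meibomian and 14 (30.4%) in lacrimal glands, beside 29.2% and 38.7% of all tested probes. Mgst1, a microsomal glutathione transferase of sebocytes, read 2.18, 2.19 and 2.16 against 98.4, 88.8 and 86.6 (-5.28 ± 0.13). Innate defence genes were higher in meibomian glands in 14 of 22 probes and in lacrimal glands in 4. The 4 were Lpo, Hp, Ltf and Sftpd, a lung and tear collectin (9.58 against 0.524), while Defb1, a beta defensin, read 0.595, 0.458 and 0.540 against 45.8, 46.1 and 43.5 (-6.01 ± 0.15), and Pglyrp1, which binds bacterial cell walls, 1.27, 0.884 and 1.14 against 54.4, 61.2 and 47.4 (-5.43 ± 0.82). The glands thus differed in which antimicrobial genes they expressed at a high level.

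**Figure D4:**
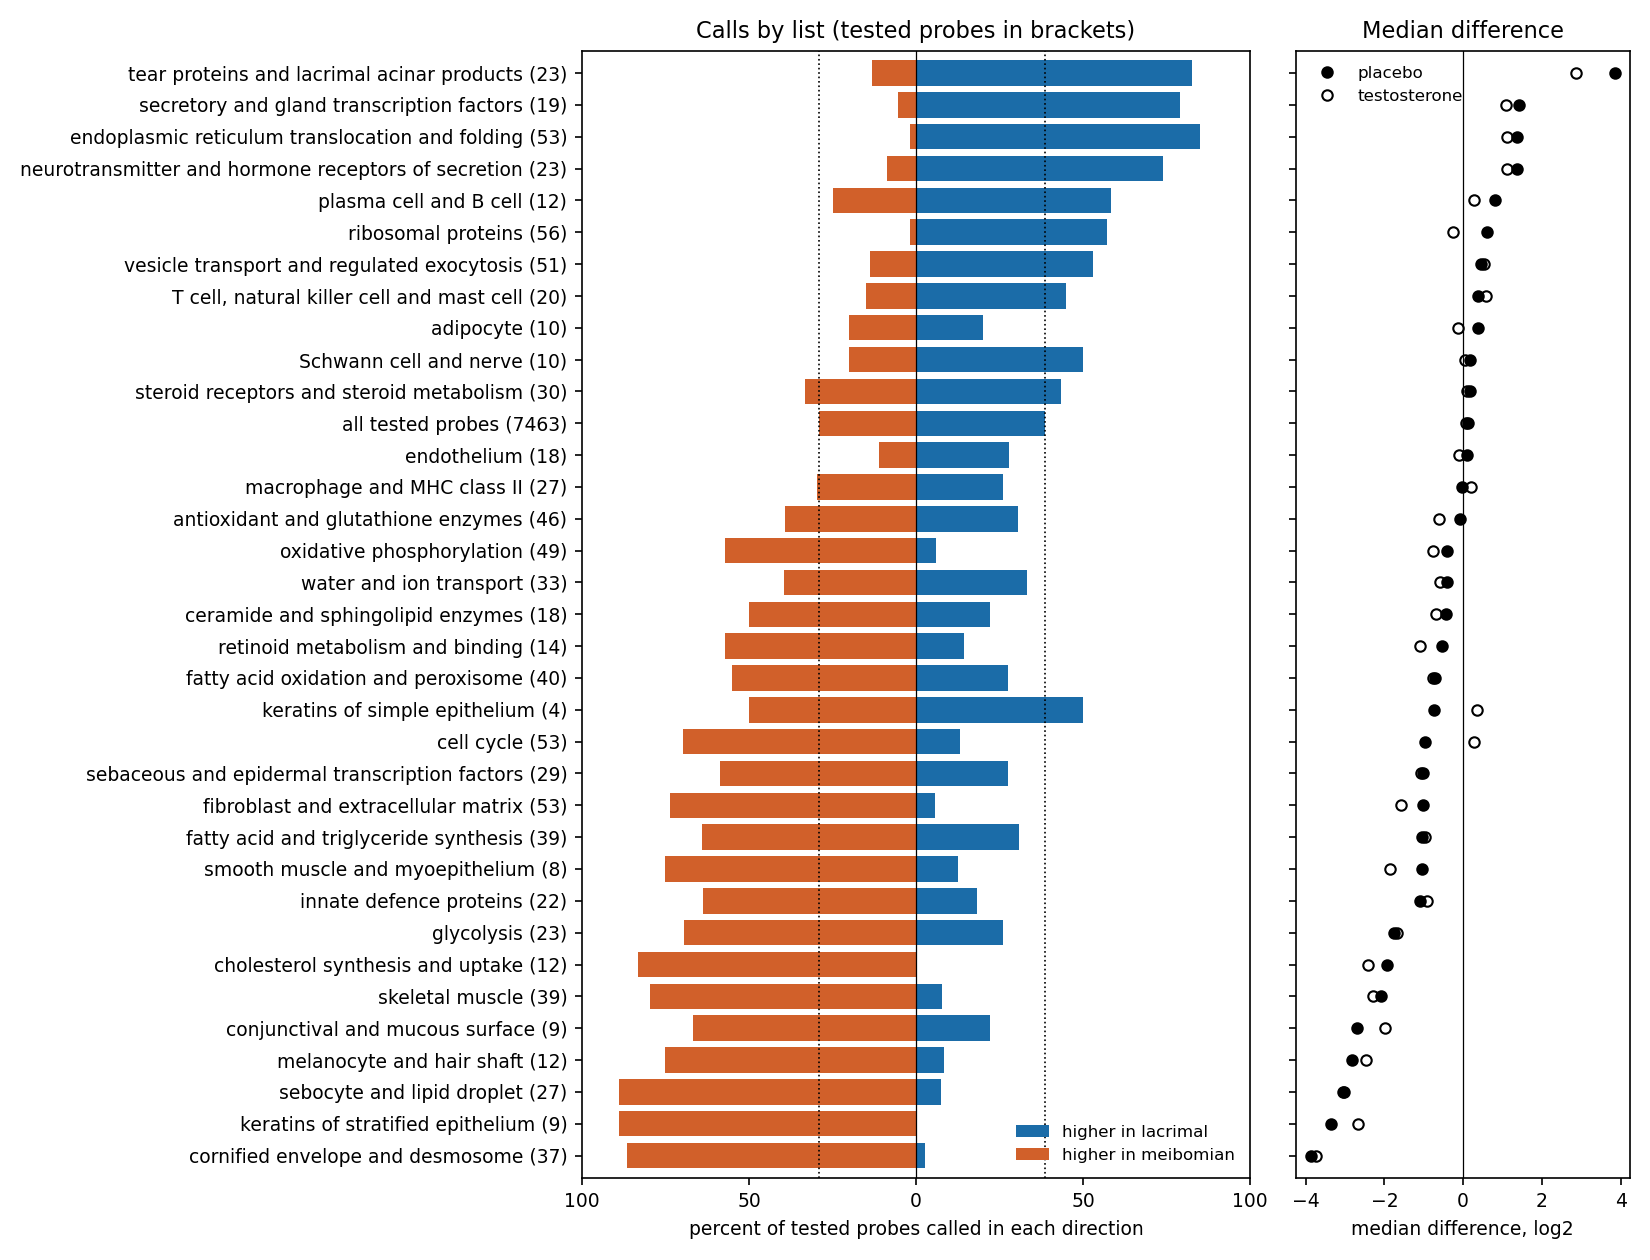
Left, percent of tested probes of each list called higher in lacrimal (right of 0) or in meibomian glands (left of 0), with dotted lines at the shares over all tested probes, 38.7% and 29.2%. Right, median lacrimal minus meibomian log2 difference under placebo (filled) and testosterone pellets (open); tear proteins have the highest placebo median (3.84) and cornified envelope genes the lowest (-3.87), and the ribosomal median of 0.60 turns negative by within-array percentile and under quantile normalization.

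Ribosomal genes showed where intensity and rank part. By intensity 32 of 56 tested ribosomal protein probes were higher in lacrimal glands and 1 in meibomian glands, with a median of 0.60. By within-array percentile 7 probes were apart in favour of lacrimal and 40 in favour of meibomian glands, with a median difference of -0.66 percentile points, and under quantile normalization 5 were called higher in lacrimal and 35 in meibomian glands. Rpl37a read 377, 367 and 365 against 134, 136 and 141 (1.43 ± 0.14) and ranked at 99.4 in lacrimal and 99.9 in meibomian glands. Eef1a1, the translation elongation factor, read 642, 587 and 591 against 135, 137 and 143 (2.13 ± 0.14), and Rplp0, a stalk protein, 281, 404 and 331 against 90.9, 95.0 and 92.0 (1.85 ± 0.16). No direction is therefore given for ribosomal protein genes. Of 48 tested probes within 10% of the maximum of a meibomian array, 31 were called higher in lacrimal and 10 in meibomian glands, and their median percentile on lacrimal arrays was 99.2. Among all calls, 39 probes had ranks that differed against their intensities, all with the intensity higher in lacrimal glands and by at most 1.86 percentile points; Rps27, Rps19 and Rplp2 were among them, and Rps19 lost its call without lacrimal pool C (0.39). Rpl37a, Eef1a1, Rps27, Rps19 and Rplp2 turned negative under quantile normalization and under normal scores of the ranks.

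The gland difference was measured again in the 6 arrays of mice with testosterone pellets, which share no array with the placebo comparison. There 5161 probes (69.2%) were called. Of the 5069 placebo calls, 4758 had the same direction with testosterone, 4140 were called in that direction and 111 were called in the opposite direction. Of the 1004 placebo calls of at least 4-fold, 990 kept their direction and 957 were called again. The difference between the pellets' gland contrasts passed the test for 1315 probes (17.6%). The scale of the arrays differed by pellet too. With testosterone the array maxima were 597 to 931 in lacrimal and 148 to 219 in meibomian glands. With placebo they were 977 to 1042 and 134.6 to 142.9. What this adds to the difference between the contrasts was not tested.

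Among the genes described, several lacrimal differences were much smaller with testosterone. Pnliprp1 differed by 9.61 without and 1.23 with testosterone (difference of the contrasts -8.38, adjusted p = 0.000291), Phyh by 4.14 and 0.33 (-3.81, adjusted p = 5.91e-10) and Hp by 7.63 and 4.99 (-2.64, adjusted p = 2.26e-06). Slc27a2 differed more, 6.42 and 9.96. The cell cycle list had 7 of 53 probes higher in lacrimal and 37 in meibomian glands without testosterone, and 21 and 11 with it: Mki67 differed by -4.09 without and -0.09 with testosterone (difference 4.00, adjusted p = 3.53e-08), Cdk1 by -3.37 and 0.03, and Birc5 by -3.65 and -0.28, and the median of the cell cycle list was -0.98 and 0.27. The sebocyte median was -3.06 and -3.04, the cornified median -3.87 and -3.74, and Lpo, Bhlha15, Elovl3 and Elovl4 did not pass the test of the difference.

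**Figure D5:**
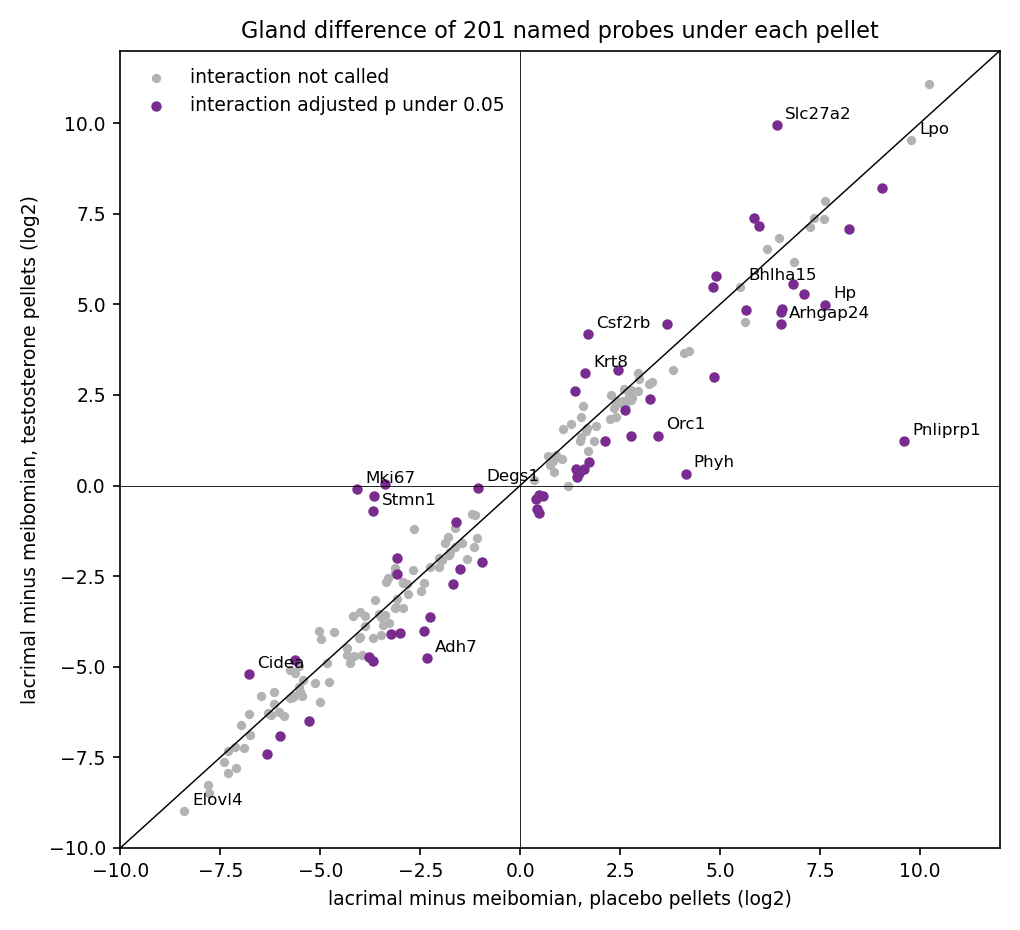
Lacrimal minus meibomian log2 difference of the 201 probes that the naming rule picked, under placebo pellets (horizontal axis) and testosterone pellets (vertical axis); the line marks equal differences and purple points passed the test of the difference between the contrasts. Most points lie near the line; Pnliprp1 and Phyh lie below it and Mki67 and Stmn1 above it.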

How the data were processed

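Per the labels, RNA pools of each gland were hybridised to 1-colour arrays. The authors deposited 1 intensity per probe and array, with scanner, scaling and normalization not given in the sources used here, so depth cannot be stated and the number of arrays limits the precision. The code -1 was read as missing and other negative values as 0. Testing required 2 or more values per group and a value above the array's 40th percentile on 3 or more of 18 arrays, which removed 146 probes with missing values and 2891 dim probes. Values were taken as log2(intensity + 0.174), the offset making differences of dim genes too small. A single model over the 18 arrays was fitted with limma 3.58.1 under R 4.3.3 (eBayes with trend, 12 residual degrees of freedom), with Benjamini-Hochberg adjustment over all tested probes; the test was tested on simulated data. The members and gene lists were chosen with earlier results of these data known. Genes were named by rule: the 15 largest called differences in each direction whose pools do not overlap, up to 5 called members per list, the 6 largest further percentile differences in each direction, a fixed set of gland genes, and genes at the meibomian maximum or with ranks against intensities; genes outside it were named after their values were seen or by a promoter match. Not every probe that the rule picked is described in the text. Probe names come from the platform annotation. Residuals of same-letter pools of the 2 glands correlated at 0.0138, 0.00771 and 0.0277, so the letters were not taken as pairs. Other offsets, filters, normalizations, variance models and pools left out were tried.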

Additional observations from a re-analysis of the deposited data

Results flagged for a closer look

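The genes below were picked out because their gland difference was not the same under both pellets, by the test of the difference between the contrasts (limma, adjusted p under 0.05). Of 160 probes of the genes named, 47 passed it, against 17.6% of all tested probes. The difference was smaller in size with testosterone for 30 of these 47, larger for 17, and of opposite sign for 5. Many of these genes were named for a large placebo difference, a choice that favours smaller differences in other arrays. The share that passed and the counts of 30 and 17 are therefore not read as a result about testosterone. Probes that the naming rule picked and the text does not describe are not in these counts. Values are the log2 gland difference with testosterone minus that with placebo. The scale of the arrays also differed by pellet, as given above, and its part in these values was not tested.

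Genes higher in lacrimal glands under placebo whose value was negative were Pnliprp1 -8.38, Phyh -3.81, Hp -2.64, Arhgap24 -2.07, Orc1 -2.07, Kcnma1 (probe 2470) -1.85, Htr1b -1.80, Dusp19 -1.74, Hoxc4 -1.65, Akr1c18 -1.38, Apobec3 -1.25, Rps27 -1.23, Rpl37a -1.18, Lcn3 -1.14, Bcl6b -1.14, Rps19 -1.07, Canx (probe 2436) -0.98, Sftpd -0.97, Kcnma1 (probe 5731) -0.93, Eef1a1 -0.92, Rplp2 -0.87, Vcan -0.86, A730035I17Rik -0.83, Elapor1 -0.81 and Elf5 -0.54. For the ribosomal genes and Eef1a1 among them the placebo direction itself turns under quantile normalization.

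Genes higher in lacrimal glands under placebo whose value was positive were Sdf2l1 0.67, P2rx4 0.73, Calr 0.77, Etv1 0.77, Jchain 0.88, Ccl28 1.20, Krt8 1.48, Gpr27 1.53 and Slc27a2 3.54. Genes higher in meibomian glands under placebo whose value was negative, a wider gap with testosterone, were Mgst1 -1.22, Trp63 -1.15, Sprr2f -1.08, Cers4 -0.94, Defb1 -0.91 and Osr2 -0.87. Genes higher in meibomian glands under placebo whose value was positive were Krtap6-1 0.81, Scd1 1.09, Cidea 1.58, Stmn1 2.97, Birc5 3.36, Cdk1 3.40 and Mki67 4.00.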

How the results depend on the processing

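Over 20 settings, 140 of 160 probes of the named genes kept their direction and call in each setting that could be fitted. The fewest called probes were 4337 of 7463 (58.1%), in the main fit at an adjusted p of 0.01. The most were 7520 of 10354 (72.6%), without the filter on dim probes. The largest share was 75.1%, with only the 6 placebo arrays of these glands in the fit. Without the filter on dim probes 5320 of 10354 probes were called higher in lacrimal glands. There 70.7% of all calls ran that way, against 57% with the filter, 51.1% under quantile normalization and 51.7% under normal scores of the ranks. The median difference of all probes was 0.125 in the main fit and 0.0166 under quantile normalization. Without the filter it was 0.517, over a larger set of probes. Normal scores are not on the log2 scale, so their median is not set beside these. With a 4-fold larger offset 320 probes were at least 4-fold higher in lacrimal glands. Leaving out pools gave 4534 to 4848 calls, and 5939 to 6257 probes with percentiles apart, the latter because fewer arrays overlap less. No pairing is given by the labels, and with the letter as a replicate block 5088 probes were called, 2901 higher in lacrimal and 2187 in meibomian glands.

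Under quantile normalization and under normal scores the differences of Rps27 (-1.05 and -0.45), Rpl37a (-0.54 and -0.65), Rps19 (-1.27 and -0.65), Rplp2 (-1.09 and -0.52), Eef1a1 (-0.11 and -0.13) and Hsp90b1 (-0.17 and -0.052) turned negative. The normal-score values are not log2 differences. Both settings give every array nearly the same distribution by construction, and the cause of the change of sign was not tested. Genes that were not called changed sign without a pool: over the pools left out, Tgtp1 ranged from -1.11 to 0.33, Iigp1 from -0.94 to 0.48 and Sprr2b from -0.19 to 0.077.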
